A study of Mus musculus with 9 samples.

Results

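Genes of glycolysis were followed in mouse liver, from the control of glucose phosphorylation to enolase. They were *Gckr*, *Gpi1*, *Pfkl*, *Pfkfb1*, *Tpi1*, *Gapdh*, *Pgk1*, *Pgam1* and *Eno1*, taken by name as steps of the pathway or regulators of them. They were chosen with earlier results of these data known, and all 9 were found among the 19329 gene symbols of the tables. The livers came from C57BL/6J mice on 2 diets, high-sucrose diet (HSD, 4 mice) and standard chow (5 mice), and poly-A RNA was sequenced. All mice received chow until 8 weeks of age, then 1 of the diets for 3 weeks, and were 11 weeks old at sampling. No engineered allele is named for the mice, each liver came from a separate animal, and the sex of the mice is not stated in the labels or methods.

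Glycolysis turns glucose into pyruvate in the cytosol. In liver, glucose is first phosphorylated, phosphofructokinase and its activator fructose 2,6-bisphosphate set the pace of the middle of the pathway, and the enzymes around them mostly work near equilibrium and are shared with glucose synthesis, which runs the opposite way. Dietary sugar is known to raise liver pyruvate kinase, and the carbon that passes through the pathway can go on to fatty acids and triglyceride.

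*Gpi1* and *Eno1* rose on HSD. *Gpi1*, the isomerase between glucose 6-phosphate and fructose 6-phosphate, averaged 394 ± 47.1 CPM in HSD livers (SD, n = 4) and 202.2 ± 40.5 CPM in chow livers (SD, n = 5). *Eno1*, the enolase that makes phosphoenolpyruvate, averaged 785 ± 36.2 CPM in HSD livers and 566 ± 76.4 CPM in chow livers. The other 7 genes did not pass the test, and 0 of the 9 fell. CPM are counts scaled to library size with TMM factors and are used for differences between diets, while levels of different genes are compared in TPM, which also account for transcript length.

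Each gene was tested with edgeR's quasi-likelihood test over all 12091 genes with enough counts, and an adjusted p (Benjamini-Hochberg) under 0.05 was called a change. Of the 9 genes 2 were called higher, where 3.44% of all genes tested were, and 0 were called lower, where 3.23% of all genes tested were. By unadjusted p under 0.05, edgeR, DESeq2 and limma voom each gave 3 of the 9 genes higher and 0 lower, where edgeR gave 12.1% of all genes higher and 11.6% lower. Every HSD liver lay above every chow liver in CPM for 3 of the 9 genes (*Gpi1*, *Pgam1* and *Eno1*), which held for 5.84% of all genes, and below every chow liver for 0, which held for 5.51% of all genes. In TPM the median over all genes was higher in HSD livers. There every HSD liver lay above every chow liver for 5 of the 9 (*Tpi1* and *Gapdh* as well), beside 10.6% of all genes, and below for 0, beside 1.6%. The median log2 fold change (HSD over chow) of the 9 genes was 0.10, beside 0.00 over all genes tested, and 6 of the 9 were positive.

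The deposited estimated counts summed to 14040723 to 24825322 per HSD liver and 12769668 to 25913869 per chow liver. All 9 genes passed the filter on low counts, the lowest count of any of them in a liver being 400 for *Pfkl*. Hepatocyte markers summed to 100300 to 129000 TPM in HSD livers and 66530 to 123500 TPM in chow livers, with all 11 measured markers detected, while muscle markers summed to at most 0.315 TPM in HSD livers and 0.194 TPM in chow livers. Kupffer cell markers summed to 138.5 to 288 TPM in HSD livers and 222 to 403 TPM in chow livers. Of the 11 tested, 0 had a positive log2 fold change (median −0.57) and 0 were called. Stellate cell markers summed to 149.7 to 193 TPM in HSD livers and 97.3 to 150.3 TPM in chow livers, 8 of the 9 tested having a positive log2 fold change (median 0.28) and 0 being called. Cholangiocyte markers summed to 46.8 to 70.3 TPM in HSD livers and 25.5 to 59.4 TPM in chow livers, 5 of the 6 tested being positive (median 0.37) and 0 called. The part of these or other cells in the results below was not tested. In whole liver, fewer cells of a type and less RNA per cell cannot be told apart. Acute phase genes summed to 17340 to 19330 TPM in HSD livers and 15660 to 116200 TPM in chow livers. Of the 20 tested, 0 had a positive log2 fold change (median −1.24), and 2 were called lower by edgeR (*Saa4* and *Itih3*), beside 3.23% of all genes. In CPM, 4 of the 20 had every HSD liver below every chow liver, beside 5.51% of all genes. The acute phase gene *Saa2* measured 3.67 to 7.08 CPM in HSD livers, 10110 CPM in chow 1 and 4.41 to 39.5 CPM in chow 2 to chow 5.

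Reads of several of these genes fit other places in the genome as well, because glycolytic genes have left many processed pseudogenes, which are reverse-transcribed copies of their mRNAs. The transcripts of each gene were divided into all their sequences of 31 bases and searched in 141767 mouse transcripts. Of the coding sequence of *Gckr*, *Pfkl* and *Pfkfb1*, 0% was found in another gene, whereas the share was 31.6% for *Tpi1*, 57.2% for *Gpi1*, 89.5% for *Eno1* and 100% for *Gapdh*, *Pgk1* and *Pgam1*. *Gapdh* stood far ahead in the number of pseudogenes that held at least 1 of its 31-base sequences, with 318. There were 16 for *Eno1*, 7 each for *Gpi1* and *Tpi1*, 6 for *Pgk1* and 5 for *Pgam1*. *Pfkl* had 19, all matching outside its coding sequence, and 0.463% of its 31-base sequences were found in any other gene.

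Stretches of 60 coding bases illustrate how close the copies are. The first pair holds coding bases 4 to 63 of *Gapdh* (glyceraldehyde-3-phosphate dehydrogenase, GRCm38 chr6:125161715-125166467, minus strand) and of *Gm3839* (chr14:11280735-11356726, minus strand), annotated as protein-coding. The second pair holds coding bases 1174 to 1233 of *Eno1* (chr4:150236721-150248879, plus strand) and the matching stretch of its processed pseudogene *Gm4735* (chr2:80837141-80838442, plus strand). Capitals mark the bases that differ within a pair.
Gapdh: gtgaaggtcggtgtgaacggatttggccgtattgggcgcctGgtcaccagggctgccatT
Gm3839: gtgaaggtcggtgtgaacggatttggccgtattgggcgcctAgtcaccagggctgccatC
Eno1: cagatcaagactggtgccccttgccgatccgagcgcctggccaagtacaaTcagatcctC
Gm4735: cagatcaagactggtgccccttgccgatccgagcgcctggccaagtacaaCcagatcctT

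Over the whole coding sequence, *Gm3839* differed from *Gapdh* at 7 of 999 bases and *Gm4735* from *Eno1* at 5 of 1302. The pseudogene *Pgk1-rs7* (chr12:10898986-10900240) differed from *Pgk1* at 0 of the 1250 bases aligned, and *Pgam1-ps2* (chr7:27469771-27470535) from *Pgam1* at 0 of 762. Reads from the coding part of these genes therefore cannot be told apart from reads of the copies except at those bases. The tables list protein-coding symbols, and 0 of the 19293 symbols that matched the annotation were pseudogenes. Whether the authors' transcript index held pseudogenes is not stated, so reads of pseudogenes may or may not be counted in the values of these genes. Kallisto divides a read among the transcripts it fits, and a gene that shares no reads keeps whole counts. Counts were whole within 0.01 in all 9 livers for *Gckr*, *Pfkfb1* and *Tpi1*, in 5 for *Pfkl*, in 1 for *Eno1*, and in 0 for *Gpi1*, *Gapdh*, *Pgk1* and *Pgam1*. Of the 31-base sequences of *Pgk1* and *Pgam1*, 0% were found in other genes of the tables. Which transcripts shared their reads was not tested.

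In TPM the order of the genes was led by *Gapdh* on both diets. In HSD livers *Gapdh* averaged 2018 ± 57.5 TPM, followed by *Eno1* (566 ± 32.7), *Tpi1* (345 ± 19.7), *Gpi1* (298 ± 36.8), *Pgk1* (225 ± 9.22), *Pgam1* (144 ± 10.7), *Gckr* (88.8 ± 15.4), *Pfkfb1* (42.7 ± 7.20) and *Pfkl* (13.1 ± 0.708). In chow livers *Gapdh* averaged 1653 ± 138 TPM, followed by *Eno1* (369.7 ± 77.1), *Tpi1* (288 ± 17.9), *Pgk1* (207.6 ± 26.9), *Gpi1* (151 ± 37.6), *Pgam1* (112 ± 10.5), *Gckr* (74.1 ± 16.1), *Pfkfb1* (41.1 ± 10.9) and *Pfkl* (13.7 ± 3.47). The orders were the same except for *Gpi1* and *Pgk1*, which changed places. Of neighbours in this order, only the ranges of *Tpi1* and *Gpi1* overlapped in HSD livers, *Tpi1* being higher in 3 of 4 livers. Among chow livers the ranges of *Eno1* and *Tpi1*, of *Pgk1* and *Gpi1*, and of *Gpi1* and *Pgam1* overlapped, although the first of each pair was higher in 5 of 5 livers.

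**Figure D1:**
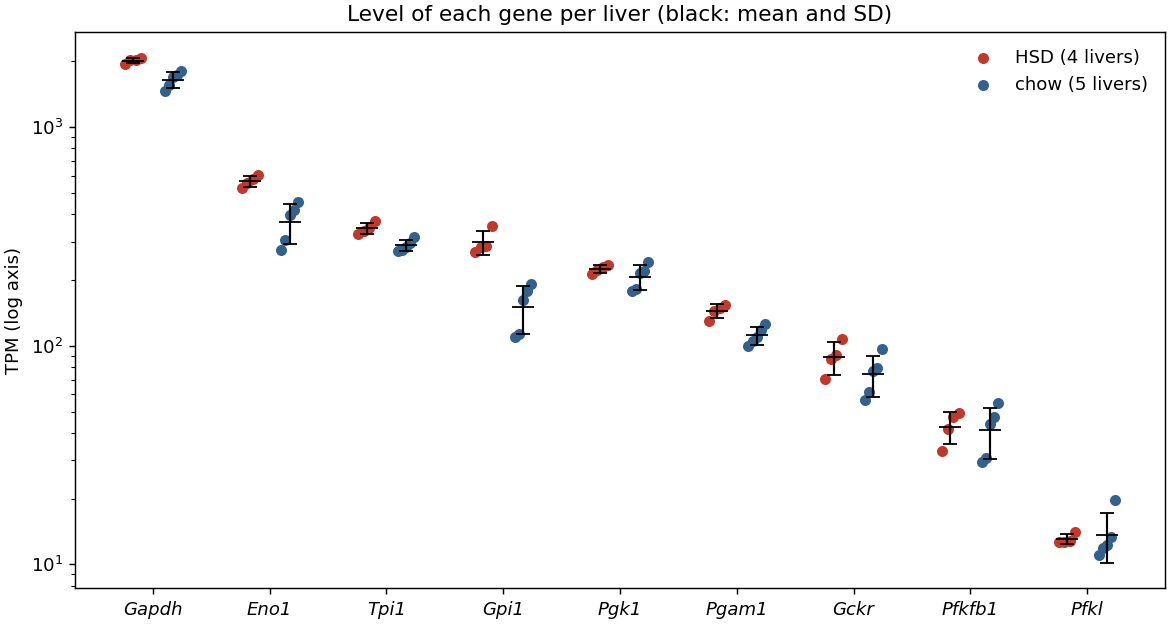
Level of each of the 9 genes in TPM (log axis) in every liver, HSD in red to the left of chow in blue, with mean and SD in black. *Gapdh* lies at 1462 TPM or more in every liver, *Pfkl* at 19.7 TPM or less, and *Gpi1* shows the clearest gap between diets, at 269 to 352 TPM in HSD livers and 109.7 to 192 TPM in chow livers.

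*Gckr* encodes a regulatory protein that restrains glucose phosphorylation in hepatocytes (chr5:31297443-31327314, plus strand). It measured 112.5, 139, 152 and 146 CPM in HSD 1 to HSD 4, against 109.9, 127.9, 107, 156.5 and 138.5 CPM in chow 1 to chow 5. The diets overlapped over most of their range. Its log2 fold change was 0.10 (standard error, SE, 0.13, 95% interval −0.18 to 0.38, edgeR adjusted p = 0.686), and the sign turned when chow 1 and chow 3 were left out together (−0.05).

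*Gpi1* (chr7:34201330-34230336, minus strand) measured 383, 348, 459.7 and 383 CPM in HSD 1 to HSD 4. Chow 1 to chow 5 measured 164, 218, 159, 214 and 256 CPM. HSD 3 was the highest, chow 1 and chow 3 were the lowest, and the lowest HSD liver lay well above the highest chow liver. *Gpi1* rose by 0.96 on the log2 scale (SE 0.15, 95% interval 0.64 to 1.28, edgeR adjusted p = 0.00396). With any 1 liver left out it stayed between 0.88 and 1.05, and the adjusted p stayed past the threshold in 9 of 9 fits (0.00315 to 0.0154). Among the pseudogenes that share its sequence, 0 are in the tables, and their part in the difference was not tested.

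The promoter window of *Gpi1* is shown because it is the gene of the 9 with the largest change (RefSeq, GRCm38.p6, chr7:34230287-34230586, minus strand, 300 bases). Capitals mark the GC box GGGCGG, a site of Sp1-type factors.
Gpi1 promoter: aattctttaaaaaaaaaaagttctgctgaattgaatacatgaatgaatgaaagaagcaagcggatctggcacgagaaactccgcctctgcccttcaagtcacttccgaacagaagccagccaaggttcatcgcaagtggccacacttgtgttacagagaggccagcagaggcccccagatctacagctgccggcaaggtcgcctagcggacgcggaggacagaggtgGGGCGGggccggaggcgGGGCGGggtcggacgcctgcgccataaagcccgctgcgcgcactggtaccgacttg

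One window was read for each gene, that nearest the start of its main transcript, although some genes have several (14 windows for the 9 genes). That motif, searched on both strands, occurred 2 times in the window of *Gpi1* and in the windows of 5 of the 9 genes (*Gpi1*, *Pfkl*, *Tpi1*, *Pgk1* and *Pgam1*), beside 35.7% of all 32851 mouse windows of this length. The E box CACGTG occurred in 0 of the 9, beside 7.15% of all windows, and ACGTG, the core bound by hypoxia-inducible factors, in 3 (*Gapdh*, *Pgk1* and *Pgam1*), beside 19.6%. The letters ACGTG also lie within CACGTG. The CCAAT box occurred in 3 (*Gckr*, *Pgk1* and *Eno1*), beside 37.4%, and TATAAA in 1 (*Pfkfb1*), beside 13.6%. A match describes letters in a window only. Over all 14 windows, the GC box occurred in 8, the CCAAT box in 7, ACGTG in 3, TATAAA in 1 and CACGTG in 0.

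*Pfkl* encodes the liver-type subunit of phosphofructokinase, which commits fructose 6-phosphate to glycolysis (chr10:77986947-78010083, minus strand). It measured 36.5, 33.7, 29.2 and 32.4 CPM in HSD 1 to HSD 4, against 38.3, 35.15, 59.9, 30.96 and 31.2 CPM in chow 1 to chow 5. Chow 3 stood above all other livers, which overlapped. The log2 fold change was −0.25 (SE 0.18, 95% interval −0.63 to 0.14, edgeR adjusted p = 0.435), and without chow 3 it was −0.04. Among the phosphofructokinase genes, *Pfkl* held 48.9 ± 3.63% of the TPM in HSD livers and 58.6 ± 6.51% in chow livers, with overlapping ranges. *Pfkm*, the muscle-type subunit, held 41.7 ± 1.80% in HSD livers and 32.7 ± 3.96% in chow livers, without overlap.

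In CPM, *Pfkm* rose by 0.43 on the log2 scale (SE 0.11, edgeR adjusted p = 0.0378), but passed in only 3 of the 9 fits with 1 liver left out, its adjusted p reaching 0.128 without HSD 1. The calls lost were those without chow 2, chow 3, chow 5, HSD 1, HSD 3 or HSD 4. Markers of muscle fibres were near 0 in all livers, with *Myh4* and *Myl1* at 0 throughout. Which cells gave the *Pfkm* difference was not tested.

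*Pfkfb1* encodes the liver form of the bifunctional enzyme that makes and removes fructose 2,6-bisphosphate (chrX:150588229-150643878, plus strand). It measured 39.8, 52.9, 59.4 and 55.3 CPM in HSD 1 to HSD 4, against 46.95, 63.2, 40.9, 51.95 and 71.9 CPM in chow 1 to chow 5. The lowest value of all was in HSD 1 and the highest in chow 5. The log2 fold change was −0.08 (SE 0.16, 95% interval −0.44 to 0.27, edgeR adjusted p = 0.805), with a positive sign on the TPM scale (0.08) and without chow 5 or HSD 1 (0.02 and 0.03). Its share of the TPM of the 4 genes of this enzyme family was 63.1 ± 4.04% in HSD livers and 76.6 ± 4.09% in chow livers, every HSD liver below every chow liver. *Pfkfb2*, the form known from heart, rose by 0.72 on the log2 scale (SE 0.16, edgeR adjusted p = 0.0244), a call lost without HSD 1, HSD 3 or HSD 4. *Pfkfb3*, a form with strong kinase activity, differed by 0.97 on the log2 scale (SE 0.40, edgeR adjusted p = 0.160) and held 24.3 ± 1.14% of the family's TPM in HSD livers and 14.2 ± 6.09% in chow livers, with overlap.

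*Tpi1* encodes triosephosphate isomerase, which interconverts the triose phosphates (chr6:124810586-124814296, minus strand). It measured 339, 338, 349 and 378 CPM in HSD 1 to HSD 4, against 356, 334, 322, 328 and 321 CPM in chow 1 to chow 5. All livers lay close together, and chow 1 lay above 3 of the 4 HSD livers in CPM, whereas in TPM the HSD livers (325.5 to 371 TPM) lay above the chow livers (273 to 316 TPM), with a limma adjusted p of 0.0867 on log2(TPM + 1). *Tpi1* had a log2 fold change of 0.08 (SE 0.08, 95% interval −0.10 to 0.26, edgeR adjusted p = 0.624).

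*Gapdh* measured 1539, 1570, 1563 and 1667 CPM in HSD 1 to HSD 4, against 1486, 1542, 1311, 1469 and 1571 CPM in chow 1 to chow 5. The HSD livers overlapped with chow 2 and chow 5 in CPM, and chow 3 was the lowest, whereas in TPM the HSD livers (1943 to 2084 TPM) lay above the chow livers (1462 to 1807 TPM), with a limma adjusted p of 0.0878 on log2(TPM + 1). For *Gapdh* the log2 fold change was 0.10 (SE 0.10, 95% interval −0.11 to 0.31, edgeR adjusted p = 0.561). Its near-copy *Gm3839* fell. This gene measured 4.91, 9.65, 14.6 and 11.9 CPM in HSD 1 to HSD 4, against 27.0, 30.2, 21.4, 26.1 and 28.1 CPM in chow 1 to chow 5, without overlap. Its log2 fold change was −1.38 (SE 0.24, edgeR adjusted p = 0.00687), and the call held with any 1 liver left out (−1.58 to −1.14).

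In TPM, *Gm3839* came to 0.215 to 0.661% of *Gapdh* in HSD livers and 1.04 to 1.40% in chow livers. With the copies in the tables added to it, *Gapdh* had a log2 fold change of 0.09 (edgeR adjusted p = 0.634). The second copy in the tables, *Gm10358*, was at 0 in all 9 livers. The part of shared reads in the difference of *Gm3839* was not tested.

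*Pgk1* encodes phosphoglycerate kinase, the first step of glycolysis that makes ATP (chrX:106187100-106203699, plus strand). It measured 260.2, 281, 279 and 292 CPM in HSD 1 to HSD 4, against 281, 300.5, 257, 304 and 292 CPM in chow 1 to chow 5. Between diets it differed by −0.05 on the log2 scale (SE 0.09, 95% interval −0.23 to 0.14, edgeR adjusted p = 0.790), with a positive sign when library totals (0.02) or TPM (0.12) were used for scaling. The diets overlapped, with chow 3 and HSD 1 as the lowest livers.

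*Pgam1* encodes phosphoglycerate mutase, which moves the phosphate ahead of enolase (chr19:41911923-41918660, plus strand). It measured 176, 165, 183 and 192 CPM in HSD 1 to HSD 4, against 158, 162, 149, 159 and 149.8 CPM in chow 1 to chow 5. Every HSD liver lay above every chow liver, HSD 2 being close to chow 2. For *Pgam1* the log2 fold change was 0.20 (SE 0.08, 95% interval 0.03 to 0.38, edgeR adjusted p = 0.144), so it did not pass. On log2(TPM + 1), limma gave a difference of 0.37 and an adjusted p of 0.0482, which became 0.0508 with a pseudocount of 0.1 and 0.0637 with no filter. *Pgam2*, the muscle form, was at 0 in all 9 livers.

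*Eno1* measured 823, 749.7, 758.5 and 808 CPM in HSD 1 to HSD 4. Chow 1 to chow 5 measured 483, 603, 483, 639 and 621 CPM. The HSD livers lay close together and above all chow livers, and chow 1 and chow 3 were again the lowest. *Eno1* rose by 0.47 on the log2 scale (SE 0.11, 95% interval 0.23 to 0.72, edgeR adjusted p = 0.0303). With 1 liver left out it stayed between 0.41 and 0.52, but passed in only 4 of 9 fits, with adjusted p = 0.0621 without chow 3, 0.0941 without HSD 1, 0.0541 without HSD 2, 0.0623 without HSD 3 and 0.0924 without HSD 4. The near-identical *Eno1b* had 11.2 counts in HSD 3, 6.29 counts in chow 5 and 0 in the other 7 livers, and adding its counts left the log2 fold change of *Eno1* at 0.47. *Eno1* made up 99.3 ± 0.146% of enolase TPM in HSD livers and 98.8 ± 0.336% in chow livers.

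**Figure D2:**
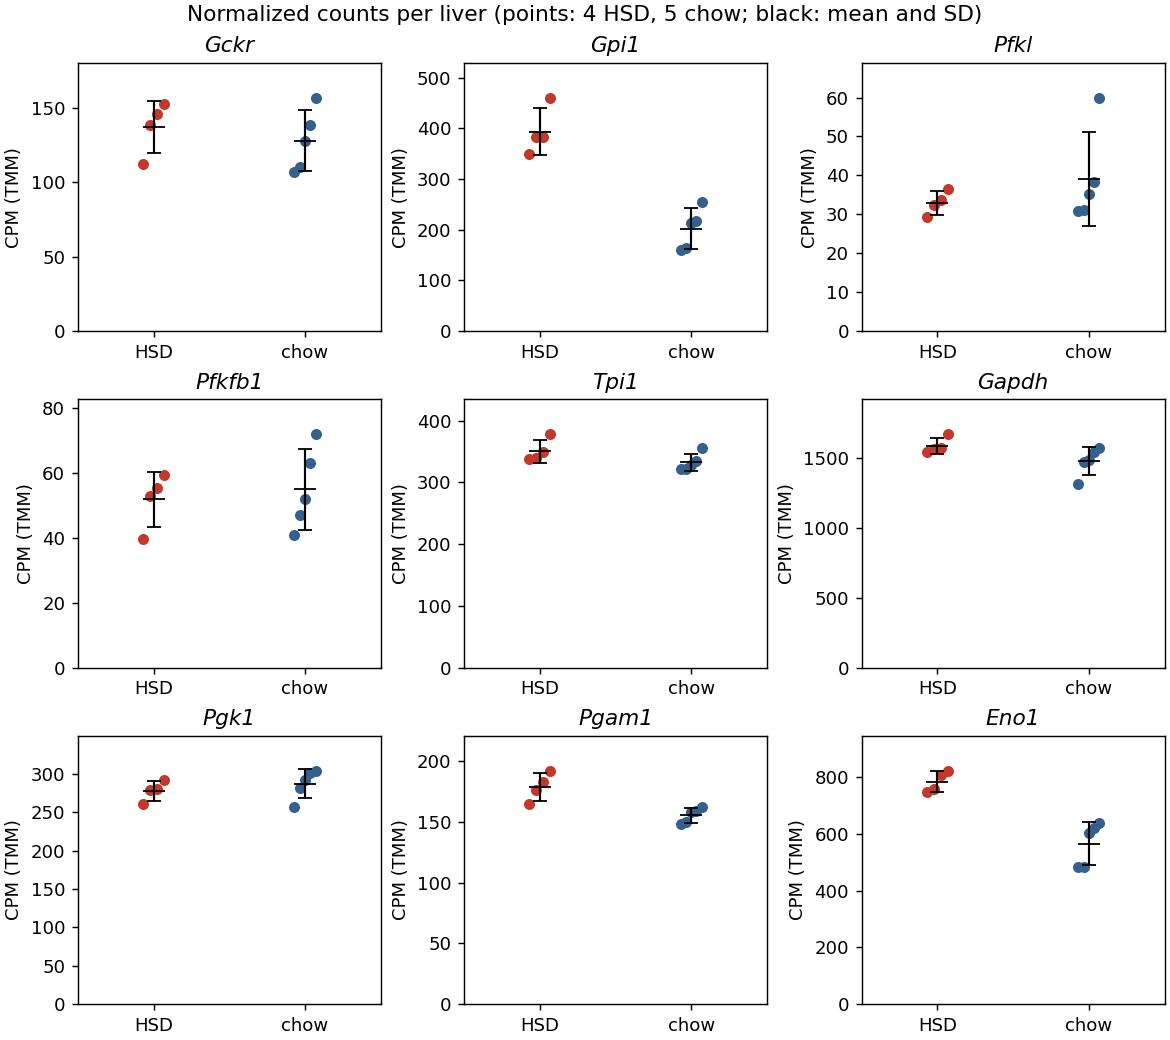
TMM-normalized CPM of each gene in every liver (points, axis from 0), HSD left and chow right, with mean and SD in black. In *Gpi1*, *Pgam1* and *Eno1* all 4 HSD points lie above all 5 chow points, and in the other 6 genes the diets overlap.

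Library numbers in the labels form 2 series, the first with 2 HSD and 4 chow livers and the second with 2 HSD livers and 1 chow liver. Within the first, *Gpi1* had a log2 fold change of 0.95 (adjusted p = 0.0705) and *Eno1* 0.51 (adjusted p = 0.256) by edgeR. The second had too few chow livers for a value. With the series as a covariate, *Gpi1* gave 0.88 (adjusted p = 0.00695) and *Eno1* 0.45 (adjusted p = 0.0642).

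Chow 1 and chow 3, low in both genes that rose, also differed from the other chow livers in the clock gene *Arntl*. It measured 4.20 to 9.15 CPM in HSD livers, 4.40 and 9.24 CPM in chow 1 and chow 3, and 1.35 to 1.63 CPM in the remaining chow livers. Left out together, an alternative chosen after seeing the data, these 2 livers lowered the log2 fold change of *Gpi1* to 0.77 (edgeR adjusted p = 0.00209) and that of *Eno1* to 0.33 (adjusted p = 0.0307), both still past the threshold. When the fit held the log2 ratio of *Arntl* to *Dbp*, both clock genes, as a covariate, *Gpi1* gave 1.10 and *Eno1* 0.57, and with the acute phase level as a covariate 0.83 and 0.37, all of them past the threshold.

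**Figure D3:**
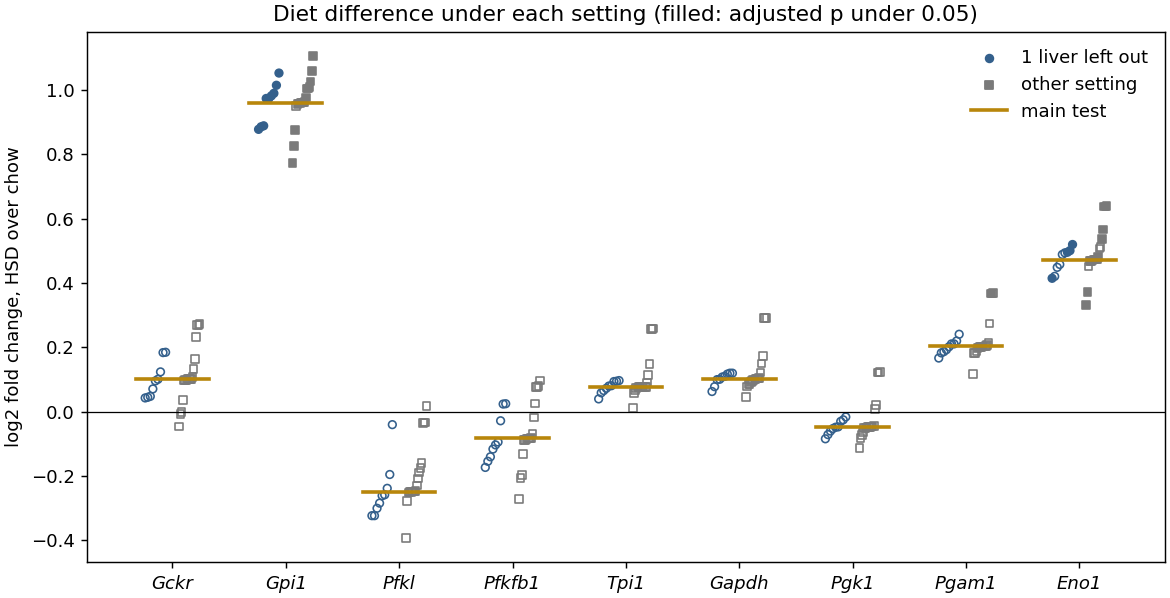
Log2 fold change (HSD over chow) of each gene under every setting tried: circles for fits with 1 liver left out, squares for other settings, a gold line for the value in the text, filled where the adjusted p was under 0.05. *Gpi1* stays above 0.77 and *Eno1* above 0.33 throughout, while *Pfkfb1*, *Pgk1*, *Gckr* and *Pfkl* reach both sides of 0.

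The genes did not move in proportion. Within each liver, *Gpi1* stood at 1.34, 1.21, 1.54 and 1.21 times the TPM of *Pgk1* in HSD 1 to HSD 4, against 0.614, 0.811, 0.624, 0.670 and 0.891 times in chow 1 to chow 5. *Eno1* stood at 2.38 to 2.83 times *Pgk1* in HSD livers and 1.54 to 1.94 times in chow livers, and *Gpi1* at 0.765 to 1.01 times *Tpi1* in HSD livers and 0.402 to 0.678 times in chow livers. None of these ratios overlapped between diets. *Gpi1* and *Eno1* are the genes that rose, and *Pgk1* and *Tpi1* did not pass the test, so the gaps largely follow from that choice. Ratios of other pairs of genes were not counted. The ratios do not depend on the scaling of a library, since both values of a ratio come from the same liver.

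**Figure D4:**
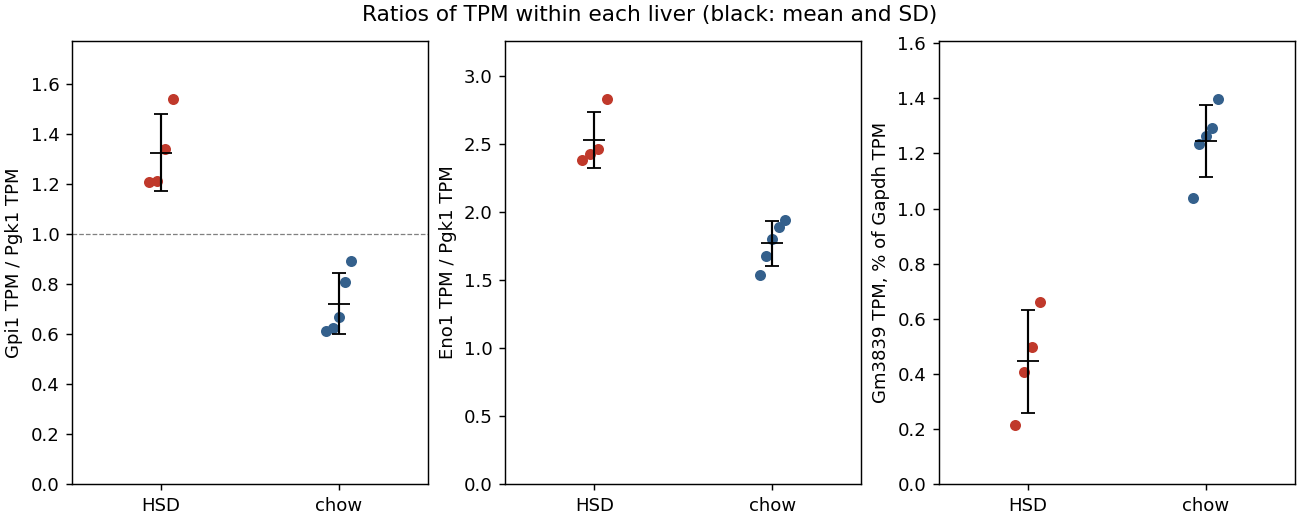
Ratios of TPM within each liver, HSD left and chow right, with mean and SD in black: *Gpi1* over *Pgk1* (dashed line at 1), *Eno1* over *Pgk1*, and *Gm3839* as a percentage of *Gapdh*. *Gpi1* exceeds *Pgk1* in 4 of 4 HSD livers and in 0 of 5 chow livers, and *Gm3839* is at 0.215 to 0.661% of *Gapdh* in HSD livers and 1.04 to 1.40% in chow livers.

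Together the 9 genes took 3638 to 3857 TPM in HSD livers and 2495 to 3264 TPM in chow livers, with *Gapdh* making up 54.0 ± 1.53% of the sum in HSD livers and 56.9 ± 1.71% in chow livers. Over all symbols listed, TPM summed to 936007 to 945110 per HSD liver and 923061 to 937448 per chow liver. TPM differences include a shift of the median, which over all genes tested was 0.14 higher in HSD livers on log2(TPM + 1). Relative to that median, *Gpi1* differed by 0.87, *Eno1* by 0.50, *Pgam1* by 0.23, *Gapdh* by 0.15, *Gckr* by 0.13, *Tpi1* by 0.12, *Pgk1* by −0.01, *Pfkfb1* by −0.06 and *Pfkl* by −0.17. The order of the genes by size of change was the same as in CPM for *Gpi1*, *Eno1* and *Pgam1* at one end and *Pgk1*, *Pfkfb1* and *Pfkl* at the other.

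Of 25 other glycolysis genes reported here, 19 were tested and 2 rose (*Pfkfb2* and *Pfkm*, given above), 0 fell, and their median log2 fold change was 0.04. Among all genes tested, edgeR called 3.44% higher and 3.23% lower. By unadjusted p under 0.05, where 12.1% of all genes were higher and 11.6% lower, edgeR gave 4 of these glycolysis genes higher and 1 lower (*Aldoc*). DESeq2 gave 3 and 1, and limma voom 4 and 2. By adjusted p, DESeq2 and limma voom each called 3 higher and 0 lower. A step on either side of the 9 genes was read beside these, both chosen after their values were seen. *Pklr*, liver pyruvate kinase, measured 715 to 1062 CPM in HSD livers and 173 to 611 CPM in chow livers, without overlap. Its difference of 1.17 on the log2 scale (SE 0.33, edgeR adjusted p = 0.0566) lay just outside the threshold. With 1 liver left out it passed in 3 of 9 fits, and its edgeR adjusted p reached 0.141 without HSD 4. *Slc2a2*, the glucose transporter of hepatocytes, had a log2 fold change of 0.00.

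**Figure D5:**
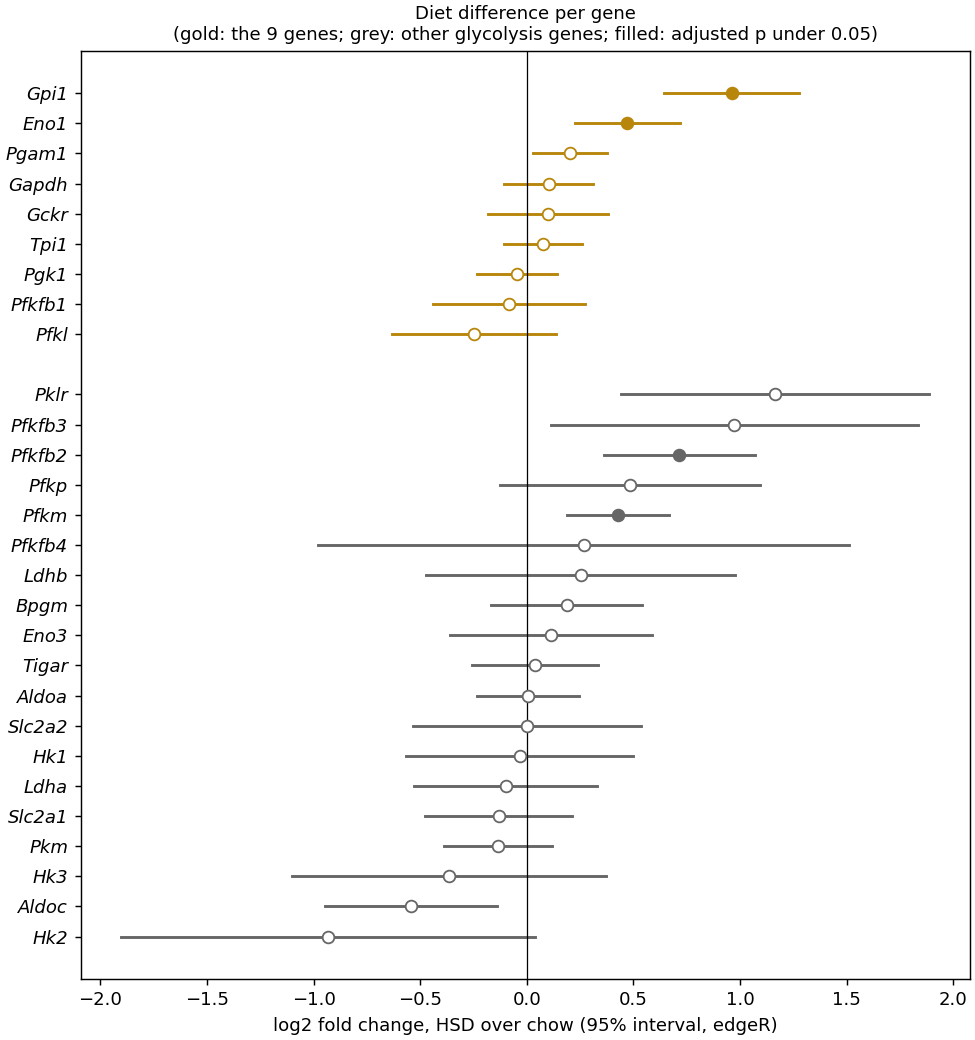
Log2 fold change (HSD over chow) with its 95% interval from edgeR for the 9 genes (gold) and 19 other glycolysis genes (grey), filled where the adjusted p was under 0.05. *Gpi1* (0.96) and *Eno1* (0.47) are filled among the 9, *Pfkfb2* (0.72) and *Pfkm* (0.43) among the others.

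Among the 7544 tested genes with a mean log2 CPM of at least 3, those with the nearest profile over the 9 livers were sought for both genes that rose, by the root mean square difference of centred log2 CPM. For *Gpi1* these were *Pgd* (0.16), an enzyme of the pentose phosphate pathway, *Gabbr2* (0.17), a receptor subunit for GABA, and *Acat2* (0.17), a cytosolic thiolase. For *Eno1* they included *Tkt* (0.06), the transketolase that returns pentose carbon to glycolysis, and *Rasa1* (0.08), a regulator of Ras. These 5 were themselves called higher in HSD livers by edgeR, the calls of *Tkt* and *Rasa1* each holding in 5 of 9 fits with 1 liver left out, and the likeness includes the diet difference.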

How the data were processed

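Poly-A libraries of 9 livers were sequenced as read pairs and quantified by the authors with kallisto (version not stated). The submitters' processing notes name the build GRCm38. The authors deposited unscaled estimated counts and TPM for each gene symbol, and the TPM sum to 923061 to 945110 per liver over the symbols listed. The step from transcripts to symbols is not stated. Of the deposited estimated counts above 0, 34.1% were whole within 1e-06, and 99.1% of these were even, for a reason that is not stated. Depths and counts are given as deposited. Halved counts were therefore tried as well, and gave 449 genes higher and 408 lower, with *Gpi1* and *Eno1* called among the 9.

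Diets were taken from the sample titles. Pairs of livers on 1 diet differed far beyond counting error (chi-square per degree of freedom 15.2 to 264 over 16 pairs), so none was the same library deposited again. After rounding, low counts were removed with filterByExpr (at least 10 counts, 15 in total) and TMM factors computed. The quasi-likelihood test of edgeR 4.0.16 (R 4.3.3) was then run with diet alone in the model (7 residual degrees of freedom, biological coefficient of variation 0.187). Log2 CPM values used a prior count of 2. Differences in CPM are given with edgeR's log2 fold change, which is fitted and not a ratio of means. limma 3.58.1 and DESeq2 1.42.0 served as alternatives, limma also on log2 TPM with pseudocounts 1 and 0.1. The script was tested on simulated data.

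Sequences of 31 bases were compared over the GENCODE M21 transcripts, where 19293 of 19329 symbols matched. Promoter windows came from RefSeq, the one nearest the start of the main transcript being used. Named genes were all 9 members, up to 4 genes past the test in each of 4 lists (other glycolysis, reverse steps, branch points, regulators), isozymes, symbols sharing at least 10% of a member's 31-base sequences, and nearest profiles. *Saa2*, *Arntl*, *Dbp*, *Pklr* and *Slc2a2* were chosen after their values were seen. Some genes of these lists and rules are not reported here and are left out of the list counts. The members and lists were chosen with earlier results of these data known. Other settings comprised other scalings, filters and units, near-copies added or left out, covariates, each liver left out in turn, and a stricter threshold.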

Additional observations from a re-analysis of the deposited data

Results flagged for a closer look

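In 60 groups of 4 or 5 livers, 1 liver stood apart from the others of its diet in 7 by Dixon's criterion on CPM, log2 CPM or TPM, where chance sets apart about 1 in 20 on 1 scale, and a larger share when any of the 3 scales counts. *Pfkl* was at 36.5 CPM in HSD 1, beside 29.2 to 33.7 CPM in HSD 2 to HSD 4 (set apart on TPM), and at 59.9 CPM in chow 3, beside 30.96 to 38.3 CPM in the rest of that diet. *Pfkfb2* was at 10.3 CPM in HSD 2, against 15.5 to 16.3 CPM, and at 6.31 CPM in chow 2, against 8.89 to 9.81 CPM. *Eno1* was at 2.83 times the TPM of *Pgk1* in HSD 1, against 2.38 to 2.46 times in HSD 2 to HSD 4. HSD 1 was also the highest HSD liver in *Arntl*, with 9.15 CPM beside 4.20 to 4.23 CPM in HSD 2 to HSD 4, and *Saa2* at 10110 CPM in chow 1, against 4.41 to 39.5 CPM.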

How the results depend on the processing

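The number of the 9 genes higher on HSD was 2 (*Gpi1* and *Eno1*) in most settings. It was 3 on log2(TPM + 1), with *Pgam1*, and 1 (*Gpi1*) on log2(TPM + 1) with no filter, with the label series as a covariate and at adjusted p under 0.01. It was 0 in the first label series alone, where 6 livers remained, and 1 to 2 with 1 liver left out. The number lower was 0 in every setting. With the replicate block it was 1 higher (*Gpi1*), *Eno1* having an adjusted p of 0.07, and over all genes 215 were higher and 213 lower. The mice are separate animals, and the labels do not state that a shared number pairs them. Deviations of same-numbered livers correlated between −0.0609 and 0.0661, over too few pairs to settle whether they were paired.

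Over all genes, 416 were higher and 391 lower (51.5% higher). The counts were 632 and 663 with DESeq2, 569 and 254 with library totals (69.1% higher), 475 and 101 on log2(TPM + 1), 448 and 101 on log2(TPM + 0.1), 243 and 51 on log2(TPM + 1) with no filter, 15 and 19 in the first label series alone, and 97 and 112 at adjusted p under 0.01. With 1 liver left out they were 153 to 475 higher and 149 to 493 lower.

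Some genes that passed in no setting changed sign. *Pgk1* was at 0.021 with library totals, 0.122 to 0.123 in the 3 fits on TPM and 0.009 with the clock covariate. *Pfkfb1* was at 0.078 to 0.080 in the 3 fits on TPM, 0.026 with the replicate block, 0.097 with the clock covariate, and −0.173 to 0.025 with 1 liver left out (0.024 without chow 5, 0.025 without HSD 1). *Gckr* was at 0.00 in the first label series alone, −0.007 with the acute phase covariate and −0.046 without chow 1 and chow 3, where *Pfkl* was at 0.017. The causes were not tested. *Gpi1* passed in 9 of 9 fits with 1 liver left out and in 17 of 18 other settings. Adding copies that share at least 5% of the 31-base sequences, chosen after seeing the data, gave the same calls as the 10% limit. *Gpi1*, *Tpi1*, *Pgk1* and *Pgam1* share sequence with pseudogenes outside the tables. *Gapdh* and *Eno1* share sequence for the most part with genes in the tables as well. How far this limits the precision of their values was not tested, and the counts of *Tpi1* were whole in all 9 livers. Counting error alone is small at these counts.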

Other observations

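Genes at the points where carbon leaves or enters these steps were counted as a further list. Of 17 tested, 5 rose and 0 fell by edgeR, beside 3.44% and 3.23% of all genes tested, and the median log2 fold change was 0.27. By unadjusted p under 0.05, edgeR, DESeq2 and limma voom each gave 7 higher and 1 lower (*Taldo1*), where edgeR gave 12.1% and 11.6% of all genes. *G6pdx*, which takes glucose 6-phosphate into the pentose phosphate pathway, averaged 84.2 ± 25.2 CPM in HSD livers (SD, n = 4) and 7.002 ± 2.30 CPM in chow livers (SD, n = 5). It rose by 3.58 on the log2 scale (edgeR adjusted p = 3.18e-05), while *Gpi1*, which acts on the same substrate, rose by 0.96. *Pgd*, the next oxidative step of that pathway, rose by 1.13 (edgeR adjusted p = 0.00622), and *Gpd2*, the mitochondrial glycerol phosphate dehydrogenase, by 0.98 (edgeR adjusted p = 0.00455). *Khk*, the ketohexokinase through which fructose enters, rose by 0.54 (edgeR adjusted p = 0.0426), a call that held in 2 of 9 fits with 1 liver left out (0.0262 to 0.113), those without chow 4 or chow 5.

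Genes of the steps that run in the opposite direction gave 0 calls by edgeR among 7 tested, with a median of −0.06. Among all genes tested, 3.44% were called higher and 3.23% lower. By unadjusted p under 0.05, where 12.1% of all genes were higher and 11.6% lower, edgeR gave 1 of the 7 higher and 1 lower (*G6pc3*). DESeq2 and limma voom each called 1 of them higher (*Pck2*, edgeR adjusted p = 0.0504). *Fbp1*, the fructose bisphosphatase that opposes *Pfkl*, averaged 822 ± 40.5 CPM in HSD livers and 859 ± 80.9 CPM in chow livers. Of 8 regulators tested, 3 rose and 0 fell by edgeR, beside 3.44% and 3.23% of all genes tested. *Ppargc1a*, a coactivator of glucose synthesis genes, rose by 0.93 (edgeR adjusted p = 0.00955) and passed with any 1 liver left out, whereas *Foxo1* (0.35) passed in 2 of 9 such fits (without HSD 2 or chow 1) and *Hif1a* (0.32) in 1 of 9 (without HSD 2). *Mlxipl*, the sugar-responsive factor ChREBP, averaged 180.4 ± 16.0 CPM in HSD livers and 167 ± 22.8 CPM in chow livers and did not pass.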
